A study of Homo sapiens with 6 samples.

Results

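The 38 genes described here, called members, encode enzymes of nucleotide and one-carbon synthesis, and their promoters were examined for Myc binding in a breast cancer cell line with and without TXNIP. They were listed by name as purine, pyrimidine, folate and serine synthesis genes, and they are 38 of 19785 protein-coding genes that were scored in the same way. The series holds 6 samples of MDA-MB-231, an established human triple-negative breast cancer line grown in DMEM with 10% FBS. The groups are unedited parental MDA-MB-231 cells (Parental) and the same line after CRISPR/Cas9 deletion of TXNIP (TKO). Each gave 2 Myc ChIP-seq libraries, described by the study as biological replicates, and 1 input sample, and no drug or other treatment separates the groups. The 2 input samples had no peak list analysed here. TKO cells come from cells cloned singly after editing, so loss of TXNIP and any other property of a clone cannot be told apart. Peak lists hold no expression, so neither the loss of TXNIP nor the identity of the cells could be checked in them.

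Nucleotides are built on phosphoribosyl pyrophosphate (PRPP), an activated sugar on which the purine ring is assembled step by step, while the pyrimidine ring is made first and joined to PRPP afterwards. Folate carries the single carbons needed for purines and for thymidylate, and serine, made by a short branch of glycolysis, is their main donor. Myc binds DNA as a dimer with Max, prefers the E-box CACGTG, and many of these genes are textbook Myc targets in proliferating cells.

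A member was called bound in a library when the summit of at least 1 peak, the base with the most reads, lay at most 1 kb from where a protein-coding transcript of that gene begins, its transcription start site (TSS). Where a gene had several such peaks, the one with the highest fold enrichment over local background was used. Lists had 3720 and 5719 peaks in Parental replicates 1 and 2 and 27213 and 25887 in TKO replicates 1 and 2, at recovered depths of 26.4, 22.2, 19.9 and 13.0 M reads. Because the lists differ in length, the position of a peak is given as its percentile by fold within its own list, where 100 is the strongest peak. A longer list raises the percentile of a peak at a given rank, so percentiles place members within a list, and a difference in percentile between Parental and TKO also carries the length of the lists.

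Nearly all of these genes had a Myc peak at the promoter in TKO cells, from NME1 and the purine genes PPAT and PFAS high in every list to GUK1 and PHGDH near the bottom of a TKO list, and 16 of them were bound in every library. In Parental replicate 1, 18 of the 38 members (47.4%) were bound, against 12.2% of all genes. In Parental replicate 2, 21 members (55.3%) were bound, against 12.9% of all genes. In TKO replicate 1, 35 members (92.1%) were bound, against 49.1% of all genes, and in TKO replicate 2, 36 members (94.7%) were bound, against 49.7%. A Parental library thus bound 19.5 ± 2.12 members on average (SD, n = 2) and a TKO library 35.5 ± 0.707 (SD, n = 2), a ratio of 1.82, and the libraries of the 2 groups did not overlap. An exact two-sided permutation test over the 4 libraries returned p = 0.333, and since 2 against 2 can go no lower, no comparison of groups here could pass 0.05. Over all genes the ratio of TKO to Parental was 3.94, which the members could not have reached, as no more than 38 can be bound. PPAT and PAICS share 1 peak in each library and are counted as 2 members throughout. The bound members thus hold 17, 20, 34 and 35 distinct peaks in Parental replicates 1 and 2 and TKO replicates 1 and 2.

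Sorted by library, 16 members (42.1%) were bound in all 4, against 9.32% of all genes. These were the same 16 that were bound in both Parental libraries, against 9.36% of all genes. Both TKO libraries bound 35 members, against 45.2% of all genes. Both TKO libraries and no Parental library bound 12 members (31.6%), against 29.8% of all genes. Fewer members than other genes were free to show that pattern, and of the 15 members with no Parental peak 12 (80%) were bound in both TKO libraries, against 35.3% of all genes with no Parental peak. Another 7 members were bound in both TKO libraries and 1 Parental library, GMPS was bound in TKO replicate 2 alone, and ADSS1 and SHMT1 were bound in none.

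**Figure D1:**
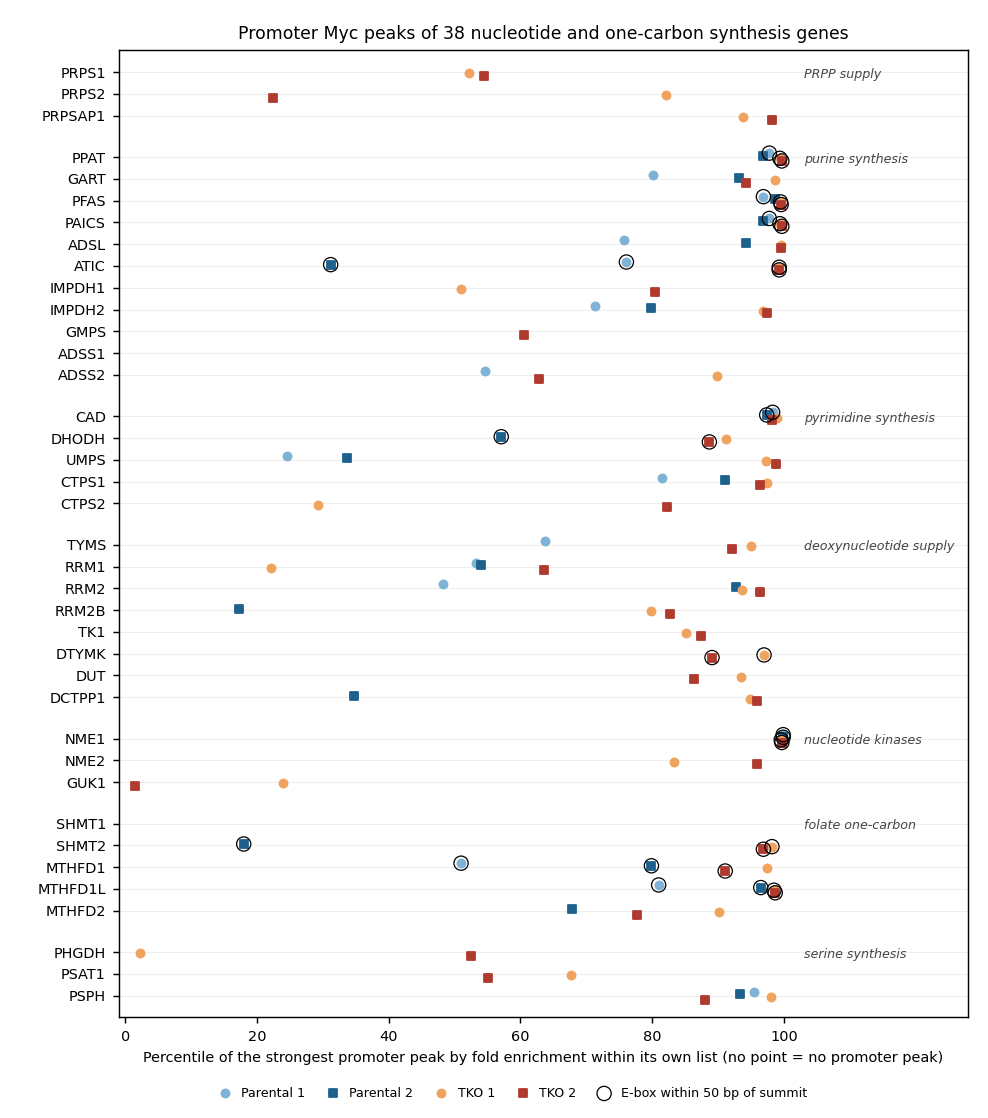
Percentile by fold enrichment of the strongest promoter Myc peak of each of the 38 genes, grouped by role. Each point is 1 library, a missing point is a library with no promoter peak, and a ring marks CACGTG within 50 bp of the summit. NME1, the purine genes PPAT, PFAS and PAICS and the pyrimidine gene CAD sit at or above 96.8 in all 4 libraries, and ADSS1 and SHMT1 have no point.

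Bound members were also among the stronger peaks of each list. The median percentile of their promoter peaks was 78.1 and 91.1 in Parental replicates 1 and 2 and 94.9 and 91.6 in TKO replicates 1 and 2. Over all bound genes the medians were 56.8, 56.8, 71.0 and 70.6. The mean of the member medians was 84.6 ± 9.15 (SD, n = 2) in Parental and 93.3 ± 2.35 (SD, n = 2) in TKO (exact permutation p = 0.333), and the difference was smaller than the SD of the Parental libraries. With every list cut to its 3720 strongest peaks, an alternative added after seeing the data, the order of the means turned, with 83.9 in Parental and 78.9 in TKO. The libraries then overlapped, with 78.1 and 89.6 in Parental and 81.0 and 76.9 in TKO, so neither group stood above the other. Peaks in the top decile of their list were found at 6 members in Parental replicate 1 (15.8%, against 1.61% of all genes) and 11 in Parental replicate 2 (28.9%, against 1.9%). In TKO they were found at 23 members in replicate 1 (60.5%, against 10.8%) and 19 in replicate 2 (50%, against 10.4%). The top decile of a longer list holds more peaks, so these counts also carry the length of the lists.

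Cutting every list to its 3720 strongest peaks removed the difference in length. Members were then reached 1.41 times as often in TKO as in Parental, against 1.33 times for all genes. The members reached were 18 in Parental replicate 1 (47.4%, against 12.2% of all genes), 16 in Parental replicate 2 (42.1%, against 9.01%), 24 in TKO replicate 1 (63.2%, against 13.9%) and 24 in TKO replicate 2 (63.2%, against 14.3%). Of these, 13 members were reached in all 4 lists, against 5.35% of all genes. The members reached in both TKO lists and no Parental list fell in number from 12 to 5, against 2.44% of all genes. They were PRPSAP1, DTYMK, DUT, DCTPP1 and SHMT2, and DTYMK was reached through a peak nearer a TSS of its neighbour ING5. RRM1 was the single member reached in both Parental lists and neither TKO list.

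**Figure D2:**
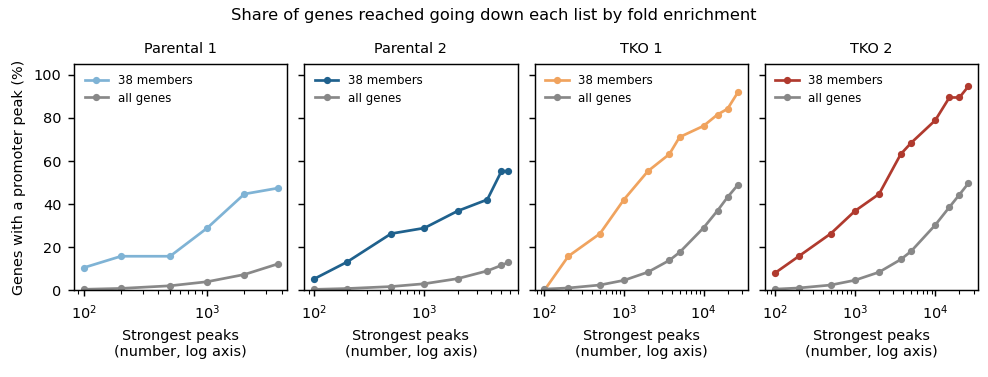
Share of the 38 members (coloured) and of all genes (grey) with a promoter peak among the strongest peaks of each list, in percent, against the number of peaks taken in order of fold on a log axis. In TKO replicate 1 the 1000 strongest peaks reach 42.1% of the members and 4.63% of all genes, and in Parental replicate 1 they reach 28.9% and 3.98%.

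The E-box CACGTG lay within 50 bp of the summit at 8 of 18 bound members in Parental replicate 1 (44.4%, against 21.6% of all bound genes) and at 7 of 21 in Parental replicate 2 (33.3%, against 18.5%). It was there at 8 of 35 in TKO replicate 1 (22.9%, against 9.14%) and at 10 of 36 in TKO replicate 2 (27.8%, against 8.09%). The group means were 38.9% ± 7.86 (SD, n = 2) in Parental and 25.3% ± 3.48 (SD, n = 2) in TKO (exact permutation p = 0.333), so the count of E-box promoters was similar while the number of bound members grew. Among the 3720 strongest peaks of each list the means were 37.8% in Parental and 37.5% in TKO. Anywhere within the peak, an E-box was found at 10, 11, 18 and 20 members in Parental replicates 1 and 2 and TKO replicates 1 and 2, or 51.4% to 55.6% of those bound, against 21.9% to 32.6% of all bound genes.

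The sites nearest the TKO replicate 1 summit are shown for the members with an E-box within 50 bp of the summit in both TKO libraries. Each is 30 bases of GRCh37/hg19, read 5′ to 3′ on the strand of the gene, with the E-box in capitals. PPAT and PAICS are transcribed away from each other and share the site, which is written on the PAICS strand.
NME1: agtgctgcgaacCACGTGggtcccgggcgc
PFAS: gagtgcatcttcCACGTGagtatagttacc
PAICS: tgagctcgcggcCACGTGcgagccgcgaaa
ATIC: ctcctacctgcgCACGTGgtgccgccgctg
DTYMK: tcctacaattgcCACGTGgccagcgtctac
SHMT2: gaccgcccatttCACGTGgcattaggggag
MTHFD1L: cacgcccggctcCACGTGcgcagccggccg
A further 3 members, chosen after their values were seen, had an E-box at the summit in 2 or 3 libraries but not in both of TKO, and their sites are given for comparison.
CAD: gcgcgccgtcctCACGTGgttccagtggag
MTHFD1: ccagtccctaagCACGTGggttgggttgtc
DHODH: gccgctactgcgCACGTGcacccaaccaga

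All but 1 of these sites lay close to a start site of the gene. The NME1 site (chr17:49230942-49230971, plus strand) was centred 14.5 bp downstream of the TSS, in the UTR. The PFAS site (chr17:8152643-8152672, plus strand) was 50.5 bp downstream, in the UTR. The MTHFD1L site (chr6:151187456-151187485, plus strand) was 1.5 bp downstream, with an E-box that spans the TSS. The ATIC site (chr2:216176799-216176828, plus strand) was centred 0.5 bp upstream of a TSS and the SHMT2 site (chr12:57623819-57623848, plus strand) 35.5 bp upstream. The shared PAICS and PPAT site (chr4:57302545-57302574) lay in an intron of PAICS, 134 bp downstream of a PAICS TSS and 778 bp upstream of the PPAT TSS. The DTYMK site (chr2:242626832-242626861, minus strand) was the exception, 616 bp upstream of DTYMK in the UTR of ING5, which is transcribed the other way. The CAD, MTHFD1 and DHODH sites lay at chr2:27440336-27440365, chr14:64855044-64855073 and chr16:72042472-72042501, all on the plus strand, and 74.5 bp downstream, 12.5 bp upstream and 0.5 bp upstream of a TSS.

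Members with an E-box at the summit had high percentiles in TKO. In TKO replicate 1 the median percentile was 99.3 at the 8 members with the motif, from 97.0 to 99.6, and 91.2 at the 27 without it, from 2.23 to 99.5. In TKO replicate 2 it was 99 at 10 members with it, from 88.7 to 99.7, and 86.9 at 26 without it, from 1.5 to 99.5. The ranges overlapped, and over all bound genes the medians with and without the motif were 88.1 and 68.9 in TKO replicate 1 and 89.3 and 68.9 in TKO replicate 2. Variants of the E-box were searched on both strands in the same window, and together they were found at 2, 3, 7 and 7 members in Parental replicates 1 and 2 and TKO replicates 1 and 2, or 11.1%, 14.3%, 20% and 19.4% of those bound, against 25.9%, 24%, 17.3% and 15.7% of all bound genes. The variant CACGCG was the most common and stood at 2, 2, 6 and 5 members in that order. The variant CATGCG was at 0, 1, 1 and 2. No member had CATGTG there in any library, against 3.57% to 6.82% of all bound genes.

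Of the 11 purine synthesis genes, 7 were bound in all 4 libraries, and the others ranged down to ADSS1, bound in none. All 6 genes of the pathway from PRPP to inosine monophosphate, a subset picked out with these values known, were bound in all 4 libraries. PPAT, which commits PRPP to purine synthesis, and PAICS, which carries out later steps, share a promoter region, and the same peak was the strongest for both genes in each library. Its percentiles were 97.8 and 96.8 in Parental and 99.4 and 99.7 in TKO, so the 2 genes are 1 measurement. In Parental replicate 1 and both TKO libraries its summit lay 734 to 824 bp upstream of the PPAT TSS, on the PAICS side, and in Parental replicate 2 it lay 47 bp downstream of that TSS. The TKO peaks were 1889 and 2314 bp wide, the widest of any member in those libraries, and covered both places.

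PFAS, which adds a nitrogen to the growing ring, had percentiles of 96.9 and 98.7 in Parental and 99.5 and 99.6 in TKO. Its summits lay 86 bp downstream, 18 bp upstream, 47 bp downstream and 64 bp downstream of the TSS in Parental replicates 1 and 2 and TKO replicates 1 and 2, and the E-box was within 50 bp of all but that of Parental replicate 2. ADSL, which splits off fumarate at a late step, had percentiles of 75.7 and 94.3 in Parental and 99.5 in both TKO libraries. GART, which catalyses 3 separate steps, had percentiles of 80.1, 93.2, 98.6 and 94.2 in the same order, at ranks 739, 388, 382 and 1513, so the order of the groups by percentile was not that by rank. ATIC, the last enzyme of the pathway, had percentiles of 76.1 and 31.2 in Parental and 99.3 in both TKO libraries. It had an E-box within 50 bp of the summit in all 4. In Parental replicate 1 this was a second motif, 15.5 bp from the summit, as the site printed above lay 59.5 bp from it.

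Beyond inosine monophosphate the branches differed between paralogs. IMPDH2, of the guanine branch, was bound in all 4 libraries with percentiles of 71.3, 79.8, 96.8 and 97.4 and summits 8 to 19 bp downstream of the TSS. IMPDH1, its paralog, was bound in TKO alone, with percentiles of 51.0 and 80.4, at summits 5028 bp apart that belong to different start sites of the gene. GMPS, the next enzyme of the guanine branch, was called in TKO replicate 2 (percentile 60.5, summit 934 bp downstream of the TSS) and not called in TKO replicate 1, where the nearest summit was 1046 bp away, just outside the 1 kb limit. ADSS2, of the adenine branch, was bound in Parental replicate 1 and both TKO libraries, with percentiles of 54.7, 89.8 and 62.9. ADSS1, its muscle-type paralog, had no promoter peak, and its nearest summits were 3102 and 2136 bp away in TKO and 43140 and 43109 bp away in Parental.

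The 3 genes of PRPP supply were bound in TKO alone, in both replicates. PRPSAP1, a regulatory partner of the synthetases, had the highest percentiles of the members bound in TKO alone, 93.8 and 98.2, with no E-box in the peak. PRPS1 had 52.2 and 54.5. PRPS2 had 82.1 and 22.4 at summits 749 bp apart that did not share a peak interval, so its call rests on 2 places. The nearest Parental peaks to these 3 genes were 48322 bp or more from a TSS.

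Each TKO library bound all 5 pyrimidine synthesis genes. CAD, which carries the first 3 activities of the pathway, had percentiles of 98.3 and 97.4 in Parental and 98.9 and 98.2 in TKO. Its promoter holds E-boxes centred 45.5 and 74.5 bp downstream of the TSS. The Parental summits stood 84 and 78 bp downstream of the TSS, 9.5 and 3.5 bp from the second motif. The TKO summits stood 138 and 131 bp downstream, 63.5 and 56.5 bp from it, so CAD was scored as having the motif in Parental and not in TKO. UMPS, which completes uridine monophosphate, had percentiles of 24.5 and 33.7 in Parental and 97.3 and 98.8 in TKO, and its ranks of 723 and 306 in TKO were ahead of 2803 and 3767 in the shorter Parental lists. CTPS1, which aminates UTP to CTP, had 81.5 and 91.1 in Parental and 97.4 and 96.4 in TKO, with summits 21 to 49 bp downstream of the TSS. Its paralog CTPS2 was bound in TKO alone at 29.3 and 82.3. DHODH, the mitochondrial enzyme of the pathway, was bound in Parental replicate 2 at 57.1 and in TKO at 91.2 and 88.7.

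The 8 genes of deoxynucleotide supply were bound in both TKO libraries. RRM1, the large subunit of ribonucleotide reductase, had percentiles of 53.3 and 54.1 in Parental and 22.1 and 63.6 in TKO, at ranks 1737 and 2604 in Parental and 21188 and 9399 in TKO. RRM2, the S-phase small subunit, had 48.2 and 92.7 in Parental and 93.7 and 96.4 in TKO. RRM2B, the p53-inducible small subunit, was bound in Parental replicate 2 at 17.3 and in TKO at 79.9 and 82.7. TYMS, which makes thymidylate, had 63.7 in Parental replicate 1 and 95.0 and 92.2 in TKO, with summits 169 to 223 bp upstream of the TSS. DCTPP1, which hydrolyses excess dCTP, had 34.8 in Parental replicate 2 and 94.9 and 96.0 in TKO.

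DTYMK, DUT and TK1 were bound in TKO alone. DTYMK, which phosphorylates thymidylate, had percentiles of 97.0 and 89.1 at the peak in the ING5 UTR. Both summits of that peak were nearer a TSS of ING5 (335 and 347 bp) than one of DTYMK (605 and 617 bp), so it cannot be given to DTYMK alone. A separate and weaker DTYMK peak stood 6 bp downstream and 22 bp upstream of its TSS, at percentiles of 47.5 and 44.6. DUT, which removes dUTP, had 93.5 and 86.4. Its summits lay 247 and 2 bp upstream of different start sites of the gene and were 429 bp apart. TK1, the S-phase thymidine kinase, had 85.1 and 87.4, but both summits were nearer a TSS of AFMID (4 and 17 bp) than one of TK1 (172 and 112 bp), so the peak cannot be given to TK1 alone.

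NME1, a nucleoside diphosphate kinase, held the strongest member peak in both Parental lists. Its percentiles were 99.9 and 99.9 in Parental, at ranks 5 and 6, and 99.6 and 99.7 in TKO, at ranks 113 and 78. The peak, chr17:49230522-49231739 in TKO replicate 1, also lies at a TSS of the NME1-NME2 readthrough gene, and all 4 libraries had the E-box within 50 bp of the summit. NME2, its neighbour, was bound at its own start sites in TKO alone, with percentiles of 83.4 and 95.9. GUK1, the guanylate kinase, had percentiles of 23.9 and 1.5, with summits 695 bp apart and nearest Parental summits 1574 and 1622 bp from a TSS.

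Among the folate genes, those acting in mitochondria and the large cytosolic enzyme were bound, and the cytosolic SHMT1 was not. MTHFD1L, the mitochondrial formate-producing enzyme, had percentiles of 81.0 and 96.5 in Parental and 98.5 and 98.7 in TKO, with 4 summits within 20 bp of each other. MTHFD1, its cytosolic counterpart, had 51.0 and 79.9 in Parental and 97.4 and 91.1 in TKO, and the TKO replicate 1 summit missed the 50 bp limit to the E-box with a distance of 50.5 bp. SHMT2, the mitochondrial serine hydroxymethyltransferase, was bound in Parental replicate 2 at 18 and in TKO at 98.2 and 96.9, with an E-box at the summit in all 3. MTHFD2 had 67.8 in Parental replicate 2 and 90.1 and 77.7 in TKO. The nearest summit to SHMT1 was at least 48320 bp away in every library.

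Of the serine synthesis genes, PSPH, the last enzyme, was bound in all 4 libraries and PHGDH and PSAT1 in TKO alone. PSPH had percentiles of 95.5 and 93.3 in Parental and 98.1 and 88.1 in TKO, at a promoter it shares with CCT6A, a chaperonin subunit, and the summits of Parental replicate 2 and TKO replicate 1 were nearer CCT6A. PHGDH, which commits glycolytic carbon to serine, had 2.23 and 52.5, and PSAT1 had 67.7 and 55.1. PHGDH shares its peak with ZNF697, whose TSS was 103 and 117 bp from the summits against 42 and 28 bp for PHGDH.

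Several of these peaks also lay within 1 kb of a TSS of another gene. Such peaks made up 27.8%, 19.0%, 20% and 22.2% of bound members in Parental replicates 1 and 2 and TKO replicates 1 and 2, against 31.5%, 31.7%, 24.4% and 24.7% of all bound genes.

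**Figure D3:**
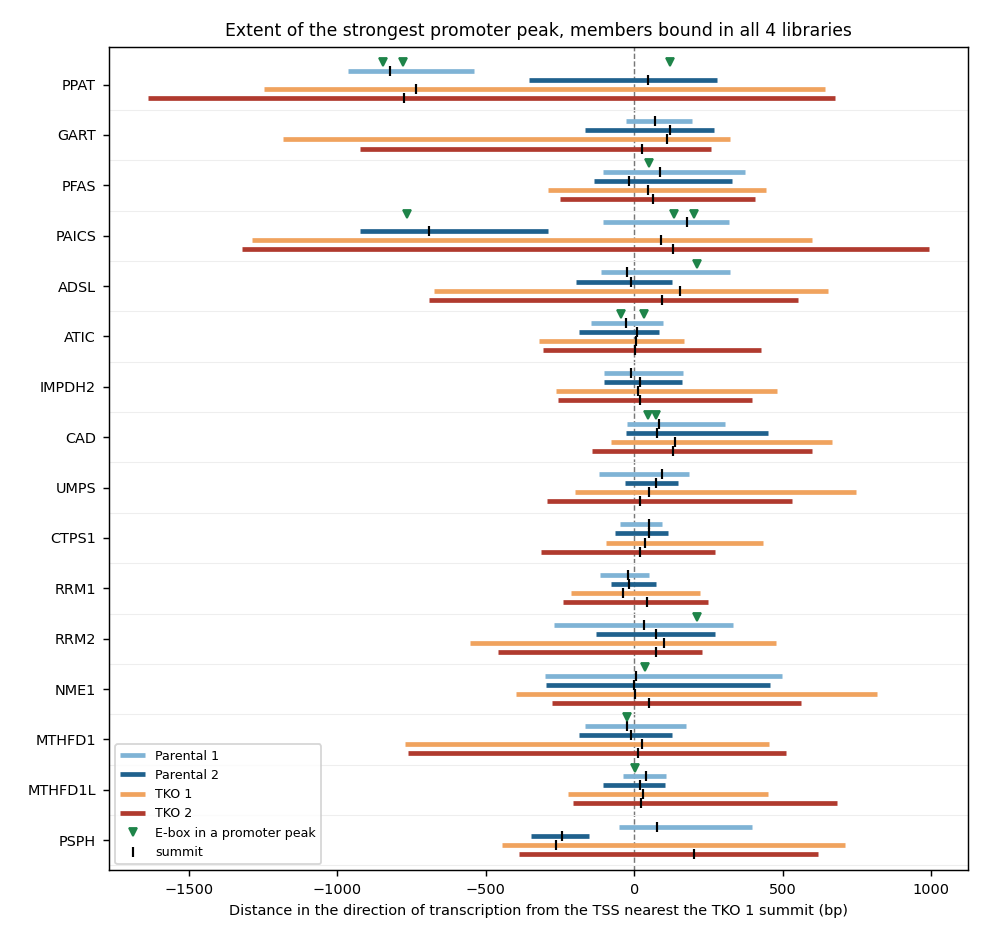
Extent of the strongest promoter peak (bars) and its summit (ticks) in each library for the 16 members bound in all 4, against the distance in bp from the TSS nearest the TKO replicate 1 summit, in the direction of transcription. Triangles mark E-boxes inside a promoter peak. TKO bars are mostly longer, while summits stay near the start site except at PPAT, PAICS and PSPH.

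Member peaks were centred close to the start site and were wider in TKO. The median distance from summit to TSS was 59 and 35 bp in Parental and 89 and 64.5 bp in TKO, against 108, 108, 150 and 146 bp over all bound genes. Summits within 100 bp of the TSS made up 77.8% and 81.0% of bound members in Parental and 51.4% and 63.9% in TKO, against 37.9% to 47.8% over all bound genes. With 1 annotated TSS per gene in place of all of them, the mean of the TKO medians was 156 bp in place of 76.8 bp. Summits lay downstream of the TSS at 72.2% and 52.4% of bound members in Parental and 62.9% and 66.7% in TKO, against 32.6% to 44.3% over all bound genes. GC content within 100 bp of the summit was close to that of other promoters, with member medians of 66.9%, 67.7%, 66.7% and 64.9% in Parental replicates 1 and 2 and TKO replicates 1 and 2 against 64.2%, 63.2%, 64.2% and 64.7%. The median width was 316 and 314 bp in Parental and 746 and 739 bp in TKO, against 243, 241, 468 and 475 bp over all bound genes. Reads were extended to different lengths before peaks were called (140, 151, 182 and 201 bp, taken as the narrowest peak of each list), and the part of this in the widths was not tested.

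Where a member was bound in both replicates, the summits were often near each other. The median distance between TKO replicates was 47 bp over 35 members, of which 31 had overlapping peaks, and between Parental replicates it was 25.5 bp over 16 members, of which 13 overlapped. Over all genes bound in both replicates the medians were 59 and 34 bp. The 4 TKO pairs without overlap were PRPS2, IMPDH1, ADSS2 and GUK1, none of them bound in both Parental libraries. The 3 Parental pairs without overlap were PPAT, PAICS and PSPH.

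Reads at the summit were recovered from the fold and p-value of each peak and divided by recovered depth. At the 16 members bound in all 4 libraries the median was 1.57 and 1.69 summit reads per M reads of depth (RPM) in Parental and 3.74 and 3.99 in TKO. The group means of 1.63 ± 0.0847 (SD, n = 2) and 3.86 ± 0.179 (SD, n = 2) gave an exact permutation p of 0.333. Both TKO values were above both Parental values at all 16 members, of which PPAT and PAICS share 1 peak. The same held for 99% of all genes bound in all 4 libraries, so the order is not particular to the members. The median ratio of TKO to Parental was 2.59 over the members and 2.56 over all such genes. The reads were extended further in TKO, as given above, and the part of this in the levels was not tested.

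**Figure D4:**
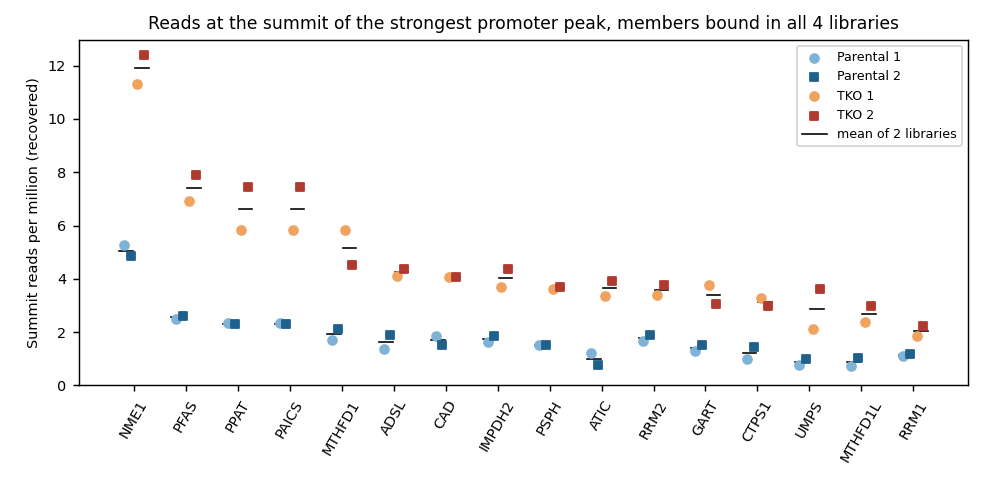
RPM, reads at the summit per M reads of depth, of the strongest promoter peak in each library for the 16 members bound in all 4, in order of the TKO mean, with black lines at the means of 2 libraries. NME1 stands above the rest in both groups, and every TKO point lies above both Parental points of the same gene.

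Ratios over the 16 members ran from 1.8 to 3.68. Their quartiles were 2.38 and 2.87, against 2.25 and 2.87 over all genes bound in all 4 libraries. NME1 had 5.26 and 4.87 RPM in Parental and 11.3 and 12.4 in TKO, the highest of any member in each group, and a ratio of 2.34. ATIC had the largest ratio, 3.68, from 1.21 and 0.766 in Parental to 3.36 and 3.91 in TKO. RRM1 had the smallest, 1.8, from 1.1 and 1.17 to 1.85 and 2.22. UMPS had 0.757 and 0.992 in Parental and 2.11 and 3.6 in TKO, a ratio of 3.27, and its TKO mean carried an SD of 1.06 (n = 2).

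The 12 members bound in TKO alone had weaker peaks there than those bound in all 4. The median was 1.33 and 1.84 RPM in TKO replicates 1 and 2 for the former and 3.74 and 3.99 for the latter, and the median percentiles were 74.9 and 81.3 against 98.5 and 98.5. Over all genes the percentile of those bound in TKO alone was 62.6 and 63.3, and of those bound in all 4 it was 95.1 and 94.7. The weakest peaks called in the Parental lists had 0.492 and 0.451 RPM, so a member without a Parental peak was not called at this depth and background, and its occupancy is not shown to be 0.

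Of 67 other genes of the same metabolism, listed for salvage, nucleotide kinases, breakdown, the folate cycle and methyl donors, 17 were bound in each Parental library (25.4%) and 50 and 49 in TKO (74.6% and 73.1%). These shares lay between those of the members and of all genes in every library. Salvage genes were bound at 3, 5, 13 and 13 of 14 in Parental replicates 1 and 2 and TKO replicates 1 and 2, and folate cycle genes at 4, 3, 12 and 11 of 15. In all 4 libraries 14 of the 67 were bound (20.9%), and 16 were bound in none.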

How the data were processed

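Chromatin of MDA-MB-231 cells was precipitated with the Myc antibody D3N8F and sequenced. The submitters' processing notes name Novoalign 3.08.02 and MACS2 2.1.1.20160309, and the build is hg19. The authors called peaks in each library against input chromatin. The deposited lists give the authors' p-value and q-value of each peak as −log10, a score made from q and, as fold enrichment, the ratio of summit to background. The study names a cutoff on p in its methods and one on q in its results, and the lists end at −log10 q of 2.03 to 2.07. Duplicate handling is not given in the sources used here.

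Groups came from the sample titles. Peaks were assigned to GENCODE v44 (lifted to GRCh37) basic protein-coding TSSs within 1 kb, 55869 sites in all. Mitochondrial genes were left out, so the 11 mitochondrial peaks were assigned to no gene but stayed in the list lengths, percentiles and ranks. For 100% of peaks a whole number of summit reads gave back the deposited fold and p, to within 0.002 in −log10 p. Depth assumes a genome of 2700000000 bases and an extension equal to the narrowest peak. Groups were compared by exact permutation over libraries, 6 splits. Genes are not replicates, so members were set beside all genes without a test.

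Values are given for all 38 members by role. The rule for full values took the 10 members bound in all 4 libraries and the 6 bound in TKO alone with the highest mean percentiles, those lacking a TKO peak, and those with an E-box in both TKO libraries. Members, lists and tests were chosen with earlier results of these data known. Steps were tested on simulated data. Tests and ranks used scipy 1.17.1 with pandas 2.3.3 and numpy 2.4.6 under Python 3.11.15, sequence was read with pysam 0.24.0, and figures were drawn with matplotlib 3.10.9. Alternatives were stricter peaks, equal lists, other TSS and motif windows, interval overlap, 1 TSS per gene, ranking by p, each library left out and a replicate block.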

Additional observations from a re-analysis of the deposited data

How the results depend on the processing

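Of 95 values recomputed with other settings, 87 stayed within 1.5 times the main count or ratio, or within 1 SD, and most are values of 1 group with no direction. The SD was that between replicates, or, for the ratio of summit reads, that over pairs of 1 TKO and 1 Parental library. Part of the 87 could not have moved. A value of 1 group is unchanged when a library of the other is left out, and a TKO mean stays within its SD when 1 TKO library is left out. Equal lists of 3720 peaks moved most: members bound in both TKO libraries went from 35 to 22, those bound in both TKO libraries and no Parental library from 12 to 5, the mean of the median TKO percentiles from 93.3 to 78.9 and the mean TKO E-box share from 25.3% to 37.5%. By construction these lists hold fewer and stronger TKO peaks. In an alternative added after seeing the data, the same lists turned the TKO minus Parental difference in median percentile from 8.68 to -4.95 and took that in E-box share from -13.6 to -0.347 percentage points. At equal length the libraries of the 2 groups overlapped in both measures. The E-box share was 21.6% with a TSS window of 500 bp and 36.6% with a motif window of 100 bp. With 1 TSS per gene the median summit distance in TKO was 156 bp in place of 76.8 bp, so closeness to the start site rests on counting every annotated TSS. Without 1 library at a time, the median TKO to Parental ratio of summit reads per M ran from 2.49 to 2.82, the highest without Parental replicate 2.

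Pairing libraries by replicate number (a replicate block) gave a ratio of members bound of 1.83 and of summit reads of 2.63, against 1.82 and 2.59. The sample titles give same-numbered libraries no more than a shared number, and their deviations correlated at 0.0722 over 1843 genes. With 2 libraries per group that value cannot show whether they also shared a batch. The block changed no call.

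Depth of 13.0 to 26.4 M reads and 2 libraries per group limit all comparisons, and a member without a peak may be bound below the threshold.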
